A study of Mus musculus with 36 samples.

Results

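Naive CD4+ T cells lacking HP1γ, encoded by Cbx3, were compared with naive cells of control littermates in 6 RNA-seq libraries, 3 of knock-out (KO) and 3 of wild-type (WT) cells, out of 36 libraries in the series. The members were chosen by the column labels, which name the naive condition, the HP1g line and the genotype. KO cells came from mice homozygous for the Hp1g flox allele that also carried the Cd4-cre transgene, and WT cells came from littermates homozygous for the same flox allele without the transgene. Both groups therefore shared the flox allele and differed by the transgene as well as by the deletion. The Cd4 promoter drives the recombinase in T cells from the thymus onward, so that the cells had lacked HP1γ since their development. Per the methods of the study the mice were males aged 6 to 12 weeks on a mixed 129/Sv and C57BL/6 background, and naive CD4+ cells with absent or low CD44 were purified from the spleen without prior treatment. The labels do not say that replicates came from separate mice, so that p-values measure the spread between these libraries, which may be in part technical.

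HP1 proteins bind histone H3 methylated on lysine 9 (H3K9) through a chromodomain and recruit further silencing factors. HP1α, HP1β and HP1γ are encoded by Cbx5, Cbx1 and Cbx3, and the H3K9 methyltransferases SUV39H1, SUV39H2, SETDB1, EHMT1 and EHMT2 make the mark that they read. HP1γ is also found in transcribed gene bodies of euchromatin. A naive CD4+ T cell is a resting cell that recirculates through lymphoid organs until it meets its antigen, and its program is kept by transcription factors such as TCF1, LEF1 and KLF2.

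The deposited estimated counts summed to between 38191675 and 56651349 per library, and levels are given here in CPM, the count of a gene relative to the library's total, after TMM scaling. One library stood apart from the others. WT replicate 2 correlated with the other libraries at Pearson r from 0.965 to 0.977 on log2 CPM over genes, whereas the other 5 libraries correlated at 0.992 or more with each other. In this library 5.64% of counts fell on cytosolic ribosomal protein genes, against 2.89% to 3.74% in the others, and its deviation from the mean of the other 5 libraries fell with transcript length (Spearman's rho over genes of -0.424, against 0.164 to 0.322 in the others). Values without this library are given beside the calls, for part of the gene lists and for genes that moved most when it was left out.

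Few genes passed the test between KO and WT naive cells. A gene was called at a Benjamini-Hochberg adjusted p under 0.05 in edgeR's quasi-likelihood test with a log2 fold change above 1 in size. This called 1 of 14939 genes tested (0.00669%), a predicted long noncoding RNA, and 863 genes (5.78%) had an unadjusted p under 0.05, of which 432 were higher and 431 lower in KO cells. KO and WT libraries did not overlap for 2800 genes (18.7%), 1543 with KO higher (10.3%) and 1257 with KO lower (8.41%). DESeq2, the tool of the study, called 38 of 18277 genes (0.208%), 20 higher (0.109%) and 18 lower (0.0985%). Without WT replicate 2 the edgeR test called 21 of 15366 genes (0.137%), 8 higher (0.0521%) and 13 lower (0.0846%), and 1278 genes (8.32%) had an unadjusted p under 0.05. The DESeq2 list and the list without WT replicate 2 had 18 genes in common, which is 47.4% of the DESeq2 calls and 85.7% of the calls without WT replicate 2, and the 1 gene called from all libraries was in both.

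The targeted gene was lower in all KO libraries but did not pass the test. Cbx3 (ENSMUSG00000029836, chromosome 6, 51447082 to 51460691, GRCm39) had 105, 184 and 113 CPM in WT replicates 1 to 3 and 67.9, 76.2 and 64.5 CPM in KO replicates 1 to 3. The groups did not overlap, and the highest level was that of WT replicate 2. The log2 fold change was -0.95 with a standard error (SE) of 0.231, and edgeR gave an adjusted p of 0.63. With DESeq2 the change was -0.99 and the adjusted p was 0.088. With limma voom and sample quality weights they were -0.68 and 0.0054. Without WT replicate 2 the change was -0.65 and the edgeR adjusted p was 0.011, below the fold threshold for a call. The mean level was 134 ± 43.9 CPM in WT and 69.5 ± 6.06 CPM in KO cells (SD, n = 3). The files count reads over the whole gene and the sources used here do not give the deleted exons. The antisense gene Hnrnpa2b1 overlaps Cbx3 at a mean of 1797.5 CPM and the kit does not mark strand. The annotation also holds 8 Cbx3 pseudogenes, and their share of the reads was not tested. Which of the remaining reads came from Cbx3 itself cannot be told apart. By western blot, the study reported that HP1γ protein was almost completely lost in naive CD4+ T cells of this line. The count of Cbx3 in the same line was also lower by -0.43 (log2) in transferred Tconv and by -0.53 in Tconv with Treg, where edgeR gave adjusted p-values of 0.32 and 0.26.

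The other HP1 genes did not pass the test. Cbx5 had 20.3 to 22.7 CPM in WT and 18.9 to 21.5 CPM in KO libraries, with a log2 fold change of -0.12 (SE 0.14). Cbx1 had 46.7, 81.1 and 46.3 CPM in WT and 52.9, 46.0 and 44.7 CPM in KO libraries, and its log2 fold change of -0.28 with all libraries became 0.03 without WT replicate 2. Of the 28 genes listed for HP1 proteins and H3K9 methylation, 0 were called, 1 was higher and 1 lower at an unadjusted p under 0.05 (7.14%, against 5.78% of all genes tested), and the lower one was Cbx3 itself. The higher one was Atf7ip, a partner of the methyltransferase SETDB1, with 191, 89.3 and 186 CPM in WT and 233, 241 and 275 CPM in KO libraries (log2 fold change 0.68, and 0.39 without WT replicate 2). Kdm3a, a demethylase of H3K9, had 72.7 to 136 CPM in WT and 138 to 172 CPM in KO libraries. The median log2 fold change of the list was 0.26, against 0.02 for all genes tested, and 0.08 without WT replicate 2. Within 5 Mb of Cbx3, 2 of 73 genes tested were higher and 3 lower at an unadjusted p under 0.05 (6.85%).

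The called gene was Gm19951 (ENSMUSG00000113136), a long noncoding RNA at chromosome 12, 99609334 to 99613482 (GRCm39), with no described function known here. It had 2.93, 4.49 and 3.28 CPM in WT replicates 1 to 3 and 32.9, 24.0 and 21.5 CPM in KO replicates 1 to 3. The lowest KO library thus lay well above the highest WT library. The level was 7.32-fold higher in KO cells (log2 fold change 2.87, SE 0.246, edgeR adjusted p = 0.0462). Without WT replicate 2 the log2 fold change was 3.07 (edgeR adjusted p = 0.000484). Leaving out any other library kept the log2 fold change between 2.67 and 2.99 but raised the edgeR adjusted p to between 0.141 and 0.417. The promoter sequence of this gene is shown because it is the gene called from all libraries. The 250 bases before its start site are from RefSeq on GRCm38.p6, and the capitals in this and the later promoters mark the interferon motif described there, of which this one holds 0.

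Gm19951, chr12:99642846-99643095, strand +: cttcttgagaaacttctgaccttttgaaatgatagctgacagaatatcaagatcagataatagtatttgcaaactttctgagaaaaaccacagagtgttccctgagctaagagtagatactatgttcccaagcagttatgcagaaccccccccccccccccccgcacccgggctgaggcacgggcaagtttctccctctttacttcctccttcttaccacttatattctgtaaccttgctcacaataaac

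In the other comparisons Gm19951 was lower, not higher, in KO cells and did not pass the test. In transferred Tconv it had a mean of 7.26 CPM in WT and 4.47 CPM in KO cells (log2 fold change -0.67, edgeR adjusted p = 0.69). In naive cells of the HP1a line, in which Cbx5 is deleted in the germ line, it had 3.24 CPM in WT and 2.21 CPM in KO cells, with 0 of 15549 genes called by edgeR and 291 (1.87%) at an unadjusted p under 0.05 between those genotypes. The KO effect in naive cells exceeded that in Tconv by 3.48 (log2, edgeR adjusted p = 0.024), in a test that called 4 of 17024 genes (0.0235%) and gave 1344 (7.89%) an unadjusted p under 0.05. It exceeded the effect of the HP1a deletion in naive cells by 3.37 (log2, edgeR adjusted p = 0.0123), in a test that called 1 of 16090 genes (0.00622%) and gave 517 (3.21%) an unadjusted p under 0.05. The difference from Tconv with Treg was not tested.

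A few protein-coding genes with low levels were also separated by genotype with little spread inside the groups. Grm6, a glutamate receptor known from the retina, had 2.27, 1.94 and 2.26 CPM in WT and 7.23, 6.13 and 6.85 CPM in KO libraries (log2 fold change 1.64, SE 0.193). Drc1, a component of the dynein regulatory complex of motile cilia, had 5.03, 3.79 and 4.32 CPM in WT and 14.0, 12.9 and 10.9 CPM in KO libraries (1.53, SE 0.189). Sp6, a zinc finger transcription factor of the Sp family, had 6.54, 6.06 and 7.68 CPM in WT and 19.6, 17.7 and 16.2 CPM in KO libraries (1.40, SE 0.166). In each of them every KO library lay above every WT library, as in 10.3% of all genes tested. Drc1 and Sp6 were picked among genes without overlap, so that for them this held by choice. Grm6 was picked among the calls of DESeq2 and of the fit without WT replicate 2. Each of these 3 genes had an edgeR adjusted p of 0.0974 with all libraries and of 0.00125 to 0.00272 without WT replicate 2. The levels did not overlap in Sun2, a nuclear envelope protein of the LINC complex that was chosen after its values were seen, with 36.2 to 40.9 CPM in WT and 59.2 to 70.1 CPM in KO libraries (log2 fold change 0.76). In naive cells of the HP1a line its mean was 69.5 CPM in WT and 59.7 CPM in KO cells. The HP1g WT group thus had the lowest mean among the naive groups, and the HP1g KO mean of 67.2 CPM lay between those of the HP1a line.

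Casp1 and Crtam were among the 10 lowest genes. Casp1, the inflammatory caspase that matures interleukin-1β, had 9.05, 10.5 and 6.56 CPM in WT and 3.59, 2.66 and 2.69 CPM in KO libraries (log2 fold change -1.54, SE 0.241). Its neighbour Casp4, the caspase that senses cytosolic lipopolysaccharide, had 3.27, 2.93 and 1.63 CPM in WT and 0.749, 0.895 and 0.381 CPM in KO libraries, and was chosen after its values were seen. The genes lie next to each other on chromosome 9, Casp1 at 5298508 to 5307290 and Casp4 at 5308828 to 5336783 (GRCm39). Crtam, a surface molecule of activated T and NK cells, had 10.9, 9.61 and 11.3 CPM in WT and 3.94, 4.83 and 5.46 CPM in KO libraries (-1.16, SE 0.188). All of the KO libraries were below all of the WT libraries in these 3 genes, as in 8.41% of all genes tested. Casp1 and Crtam were picked among genes without overlap, so that for them this held by choice. For Casp1 and Crtam edgeR gave an adjusted p of 0.381 with all libraries, and of 0.0118 and 0.00534 without WT replicate 2.

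Tmem256, a small transmembrane protein, had 9.10, 21.5 and 9.84 CPM in WT and 3.15, 3.84 and 2.98 CPM in KO libraries. Its log2 fold change was -2.02 (SE 0.352) with all libraries and -1.52 without WT replicate 2, where the edgeR adjusted p was 0.00169. Cd200r4, a relative of the CD200 receptor, had 7.50 to 8.56 CPM in WT and 3.38 to 4.31 CPM in KO libraries (log2 fold change -1.07). Zfp937, a zinc finger gene, had 5.01 to 6.86 CPM in WT and 1.93 to 2.53 CPM in KO libraries (-1.39). Both subunits of the soluble guanylate cyclase, the receptor of nitric oxide, were near the limit of detection in KO cells. Gucy1a1 had 1.66, 1.85 and 1.45 CPM in WT and 0.174, 0.0236 and 0.291 CPM in KO libraries, and Gucy1b1, which was chosen after its values were seen, had 0.683 to 1.06 CPM in WT and at most 0.0943 CPM in KO libraries. Their genes are neighbours on chromosome 3, at 81999733 to 82053216 and 81939312 to 81982022. At these depths 3 counts, the limit that a count of 0 allows, correspond to 0.0523 to 0.0763 CPM and cover counting error only.

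Tent5a and Marchf6 were lower in KO cells at higher levels and small spread. Tent5a, a cytoplasmic poly(A) polymerase, had 53.1, 47.5 and 58.5 CPM in WT and 28.6, 22.5 and 30.5 CPM in KO libraries (log2 fold change -0.96, SE 0.17). Without WT replicate 2 its log2 fold change was -1.05, with an edgeR adjusted p of 0.00169. Marchf6, a ubiquitin ligase of the endoplasmic reticulum that was chosen after its values were seen, had 39.7, 34.2 and 42.8 CPM in WT and 22.0, 20.3 and 20.9 CPM in KO libraries (-0.88, SE 0.146). The edgeR adjusted p of Marchf6 was 0.381 with all libraries and 0.00104 without WT replicate 2. A pair of copies of the ribosomal protein gene Rps12 changed places in the table. Rps12l1 was listed at 0 in all WT libraries and at 1.05 to 1.91 CPM in KO libraries, and Rps12-ps3, chosen after its values were seen, was listed at 1.37 to 2.71 CPM in WT libraries and at 0 in all KO libraries. Reads of near-identical copies cannot be assigned with certainty, so that no fold is given for them.

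**Figure D1:**
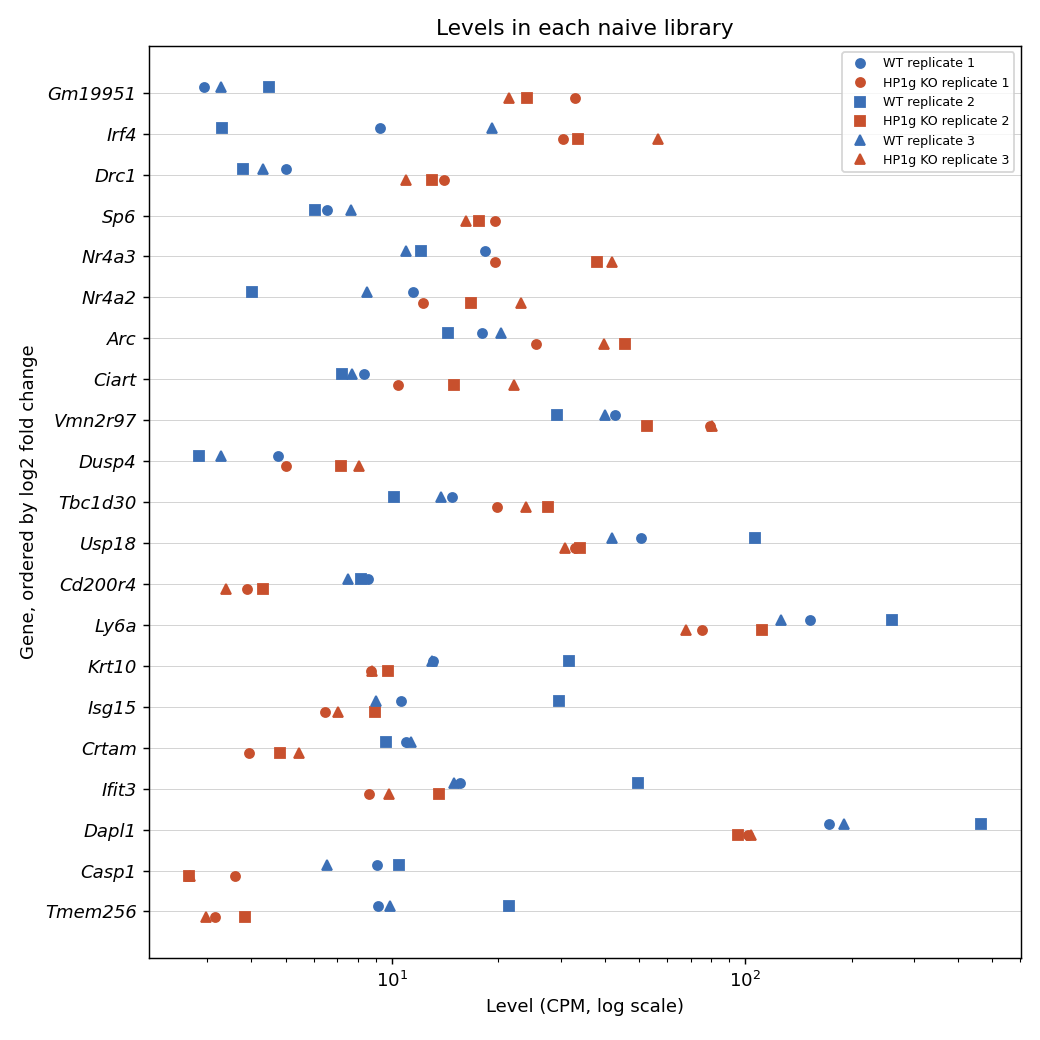
Level of Gm19951 and of the 10 highest and 10 lowest genes by log2 fold change in each of the 6 naive libraries, in CPM on a log axis, with 1 symbol per library, blue for WT and red for HP1g KO. Gm19951 sits at 2.93 to 4.49 CPM in WT and 21.5 to 32.9 CPM in KO libraries, and WT replicate 2 (blue squares) is the highest library of Dapl1, Ifit3, Isg15, Krt10, Usp18, Ly6a, Casp1 and Tmem256.

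Genes that respond to T cell receptor signals were higher in KO cells for part of the list. These genes encode transcription factors and phosphatases that are transcribed soon after stimulation. Of 22 genes listed, 22 were tested and 0 were called, 7 were higher (31.8%) and 0 lower at an unadjusted p under 0.05, against 2.89% of all genes tested in each direction. The 7 genes were Irf4, Nr4a3, Nr4a2, Egr2, Egr1, Dusp2 and Nr4a1, and the median of the list was 0.14. Without WT replicate 2 the median was 0.20, with 6 higher and 2 lower.

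Irf4, a transcription factor of activated lymphocytes that scales with receptor signal strength, had 9.22, 3.29 and 19.2 CPM in WT and 30.5, 33.5 and 56.4 CPM in KO libraries. The groups did not overlap, but the WT libraries differed widely among themselves, and the log2 fold change of 1.93 had an SE of 0.565. Nr4a3, an orphan nuclear receptor induced by the T cell receptor, had 18.3, 12.1 and 10.96 CPM in WT and 19.6, 38.1 and 41.9 CPM in KO libraries (1.27, SE 0.32), so that KO replicate 1 was close to WT replicate 1. Its relative Nr4a2 had 11.4, 4.02 and 8.49 CPM in WT and 12.2, 16.8 and 23.2 CPM in KO libraries. Egr2, a zinc finger factor linked to anergy, was tighter, with 21.3, 16.98 and 21.8 CPM in WT and 28.2, 30.7 and 29.8 CPM in KO libraries (0.56, SE 0.153). Dusp2 had 262 to 368 CPM in WT and 433 to 441 CPM in KO libraries. The other members did not pass at an unadjusted p under 0.05. Fos, Junb, Jund, Ier2, Zfp36 and Cd69 had log2 fold changes between -0.11 and 0.12, and Jun and Myc had -0.30 and -0.29. The edgeR adjusted p of the 7 higher genes was 0.63 each.

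Arc, Dusp4, Ciart, Vmn2r97 and Tbc1d30 were also among the 10 highest genes. Arc, an immediate early gene of neurons, had 18.0, 14.4 and 20.4 CPM in WT and 25.5, 45.7 and 39.7 CPM in KO libraries. Dusp4, a phosphatase of mitogen-activated kinases, had 2.85 to 4.76 CPM in WT and 5.02 to 8.08 CPM in KO libraries. Ciart, a repressor in the circadian clock, had 7.24 to 8.34 CPM in WT and 10.4 to 22.1 CPM in KO libraries. In Irf4, Nr4a3, Nr4a2, Arc, Ciart and Dusp4 alike KO replicate 1 was the lowest KO library. In naive cells of the HP1a line Irf4 ranged from 2.02 to 26.5 CPM in WT and from 2.37 to 49.4 CPM in KO libraries, with replicate 1 the highest in both. The last of the 10 highest were Vmn2r97, of the vomeronasal receptor family, with 29.2 to 42.9 CPM in WT and 52.6 to 80.7 CPM in KO libraries, and Tbc1d30, of a family of Rab GTPase regulators, with 10.1 to 14.8 CPM in WT and 19.8 to 27.5 CPM in KO libraries. Of the 10 highest genes, DESeq2 called Irf4, Drc1, Sp6, Nr4a3 and Arc, and the edgeR test without WT replicate 2 called 2.

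Of the genes of the type I interferon response, a part was lower in KO libraries at an unadjusted p and none was called. They encode antiviral effectors and are transcribed when a complex of activated transcription factors binds interferon-stimulated response elements in their promoters. Of 22 genes tested, 19 had a negative log2 fold change, 0 were called, and 0 were higher and 7 lower (31.8%, against 2.89% of all genes tested being lower) at an unadjusted p under 0.05. The median was -0.65 with all libraries and -0.25 without WT replicate 2, where 0 were higher and 8 lower. The 7 genes were Ifit3, Isg15, Usp18, Ifit1, Xaf1, Oas1a and Oasl2. The summed level of the list was 1512.3 to 1830.4 CPM in WT and 1170.0 to 1382.4 CPM in KO libraries, which do not overlap.

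The size of the difference moved with WT replicate 2. Ifit3 had 15.6, 49.8 and 14.9 CPM in WT replicates 1 to 3 and 8.63, 13.6 and 9.79 CPM in KO libraries, so that its log2 fold change moved from -1.33 with all libraries to -0.53 without WT replicate 2. Isg15, a ubiquitin-like modifier, had 10.6, 29.7 and 9.02 CPM in WT and 6.45, 8.95 and 7.03 CPM in KO libraries, and moved from -1.14 to -0.40. Usp18, the protease that removes Isg15 from proteins, had 50.5, 106 and 42.0 CPM in WT and 32.9, 34.0 and 30.9 CPM in KO libraries, and moved from -1.03 to -0.52. The other WT libraries still lay above all KO libraries in each of them, but by only 9.02 against 8.95 CPM in Isg15. These 3 genes were chosen among those without overlap, so that this held by choice. In naive cells of the HP1a line the mean of Ifit3 was 17.1 CPM in WT and 12.4 CPM in KO cells. Isg15 had 7.89 and 7.42 CPM there, and Usp18 had 41.7 and 39.6 CPM. On the same scaling the HP1g WT means were 28.3, 17.3 and 69.7 CPM, the highest of the naive groups. The HP1g KO means were 10.9, 7.66 and 33.3 CPM. They were the lowest of the naive groups for Ifit3 and Usp18, and lay between those of the HP1a line for Isg15. Relatives of these genes that were chosen after their values were seen were less dependent on WT replicate 2. Ifit1bl1 had 56.6, 82.1 and 55.9 CPM in WT and 33.6, 39.1 and 28.6 CPM in KO libraries (log2 fold change -0.94, and -0.75 without WT replicate 2). Ifit1bl2 had 2.33 to 2.77 CPM in WT and 0.99 to 1.03 CPM in KO libraries, and Ifi44 had 3.44 to 4.14 CPM in WT and 1.27 to 1.74 CPM in KO libraries. The log2 fold change of Ifi44 was -1.32 here and -1.39 in naive cells of the HP1a line. In that line the WT libraries ranged from 1.75 to 5.36 CPM.

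The promoters of Ifit3, Ifit1 and Isg15 are shown because they carry the element by which these genes are known to respond together. The motif searched was GAAA, any 2 bases and GAAA again, known as the interferon-stimulated response element. It was searched on both strands of the 250 bases before each start site, with overlapping matches counted. Of the 22 genes 14 had a promoter in the RefSeq table, and 8 of these (57.1%) held the motif, against 936 of 27025 genes with a promoter in all (3.46%). Capitals mark the matches, of which Ifit3 holds 2, Ifit1 holds 2 and Isg15 holds 3. The build is GRCm38.p6, whereas the counts are on GRCm39.

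Ifit3, chr19:34583279-34583528, strand +: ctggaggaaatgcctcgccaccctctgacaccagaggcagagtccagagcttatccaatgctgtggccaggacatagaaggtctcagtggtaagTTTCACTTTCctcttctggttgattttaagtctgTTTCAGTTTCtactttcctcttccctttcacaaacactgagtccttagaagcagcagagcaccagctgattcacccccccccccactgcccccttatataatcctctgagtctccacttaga

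Ifit1, chr19:34640639-34640888, strand +: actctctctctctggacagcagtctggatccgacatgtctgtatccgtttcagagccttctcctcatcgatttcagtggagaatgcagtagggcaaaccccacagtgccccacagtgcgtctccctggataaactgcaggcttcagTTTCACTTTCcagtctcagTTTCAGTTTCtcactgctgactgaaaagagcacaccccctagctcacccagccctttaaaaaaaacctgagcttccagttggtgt

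Isg15, chr4:156200819-156201068, strand -: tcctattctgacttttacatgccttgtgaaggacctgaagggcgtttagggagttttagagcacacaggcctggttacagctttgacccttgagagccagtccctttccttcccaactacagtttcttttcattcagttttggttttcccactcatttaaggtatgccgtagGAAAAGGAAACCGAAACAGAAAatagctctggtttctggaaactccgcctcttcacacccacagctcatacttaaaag

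**Figure D2:**
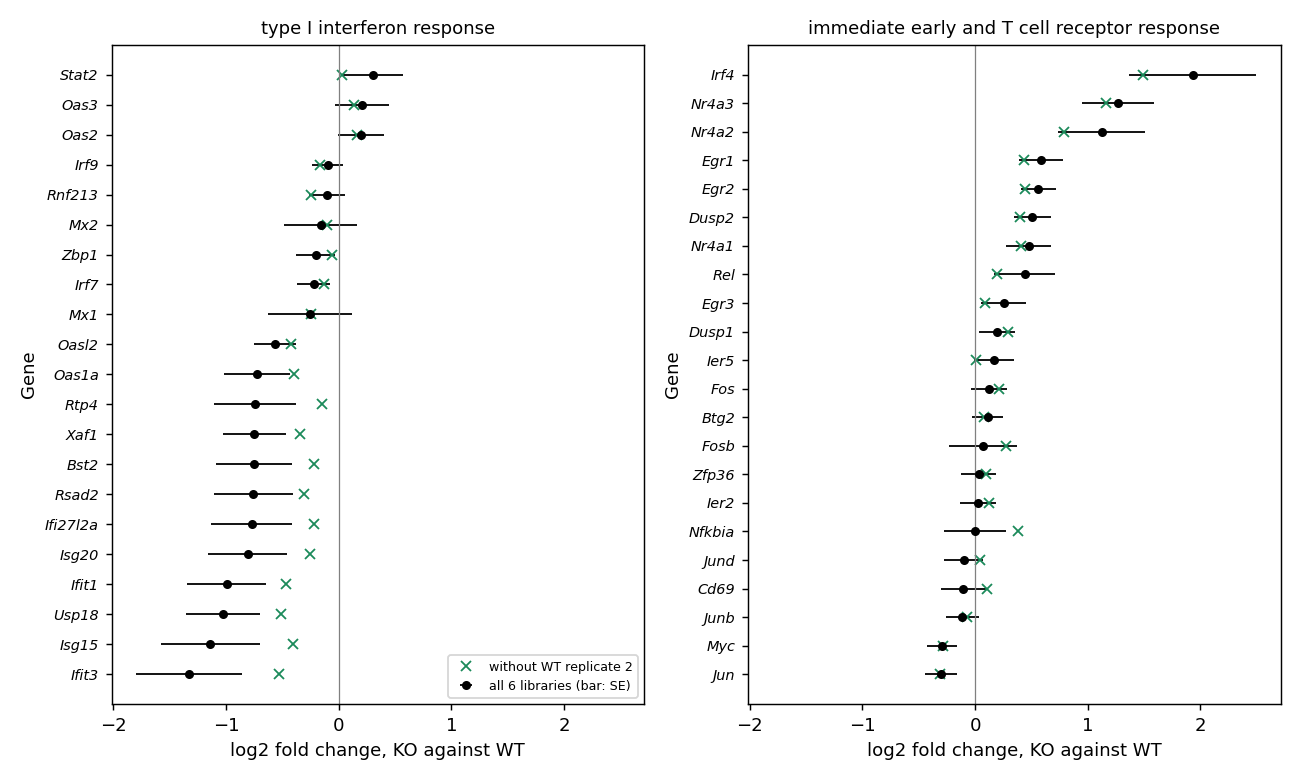
Log2 fold change of HP1g KO against WT naive cells for the genes of the type I interferon list (left, 1 gene not shown) and of the immediate early and T cell receptor list (right). Black points with bars are the fit and SE with all 6 libraries, and green crosses are the fit without WT replicate 2, which brings Ifit3 from -1.33 to -0.53 and leaves Irf4 at 1.49.

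Among the genes of naive T cell identity, Ccr7 and Lef1 overlapped between the genotypes. Ccr7 had 1351 to 1595 CPM in WT and 1336 to 1501 CPM in KO libraries, and Lef1 had 1296 to 1479 CPM in WT and 1251 to 1381 CPM in KO libraries. The log2 fold changes of these genes were -0.06 (SE 0.143) and -0.05 (SE 0.139). Of 20 genes of the list 0 were called, 2 were higher and 1 lower at an unadjusted p under 0.05 (15%, against 5.78% of all genes tested), and the median was 0.04. The lower one, Dapl1, which is known to be abundant in naive T cells, had 173, 464 and 190.4 CPM in WT and 102, 95.2 and 104 CPM in KO libraries. Its log2 fold change was -1.46 (SE 0.365) with all libraries and -0.87 without WT replicate 2, where edgeR gave an adjusted p of 0.00105. The higher ones were Il6ra, a chain of the interleukin-6 receptor, with 152 to 179 CPM in WT and 216 to 223 CPM in KO libraries, and S1pr1, which guides cells out of lymphoid organs, with 985 to 1349.7 CPM in WT and 1374 to 1791 CPM in KO libraries.

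The markers of the T cell receptor complex and coreceptor were present as the label states. Cd4 had 582 to 785 CPM in WT and 846 to 966 CPM in KO libraries, and Cd3e had 876 to 1146 CPM in WT and 877 to 1017 CPM in KO libraries. None of the 17 genes of this list had an unadjusted p under 0.05. Thy1 had 44.5 to 75.4 CPM in WT and 36.8 to 46.0 CPM in KO libraries.

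No gene of the effector and inhibitory lists was called. Of 26 effector and memory genes 22 were tested, 0 were called, 1 was higher (Cxcr3) and 3 were lower (Ly6c2, Prf1 and Cd44) at an unadjusted p under 0.05 (18.2%, against 5.78% of all genes tested), and the median of -0.22 became 0.03 without WT replicate 2. Cd44, which marks antigen-experienced cells, had 45.8, 48.0 and 52.4 CPM in WT and 37.5, 40.4 and 36.4 CPM in KO libraries. Prf1, encoding perforin, had 56.1 to 82.2 CPM in WT and 34.4 to 48.9 CPM in KO libraries, and Ly6c2 had 2.88 to 5.04 CPM in WT and 1.77 to 2.10 CPM in KO libraries. Krt10, a keratin, had 13.0, 31.7 and 13.0 CPM in WT and 8.73, 9.73 and 8.80 CPM in KO libraries (log2 fold change -1.08, and -0.53 without WT replicate 2). Ly6a, encoding Sca-1, had 152, 260.2 and 126 CPM in WT and 75.4, 112 and 67.8 CPM in KO libraries (-1.08, and -0.72 without WT replicate 2). Among 20 inhibitory, exhaustion and anergy genes 16 were tested, with 0 called, 2 higher (Egr2 and Prdm1) and 1 lower (Cd200) at an unadjusted p under 0.05 (18.8%), and the median of 0.05 became -0.12 without WT replicate 2. Pdcd1, encoding PD-1, had 2.97 to 4.10 CPM in WT and 2.97 to 4.36 CPM in KO libraries (log2 fold change 0.14, SE 0.241), and Tox, a factor of exhausted cells, had 83.04 to 98.7 CPM in WT and 75.0 to 91.3 CPM in KO libraries. Prdm1, encoding BLIMP1, had 3.85 to 5.05 CPM in WT and 5.73 to 8.44 CPM in KO libraries, and Cd200 had 15.6 to 18.8 CPM in WT and 11.3 to 14.3 CPM in KO libraries.

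Foxp3, the factor that defines regulatory T cells, had 4.80 to 7.14 CPM in WT and 5.49 to 9.34 CPM in KO libraries, which overlap. Of 12 regulatory T cell genes 0 were called, and 2 were higher (16.7%, against 2.89% of all genes tested) and 0 lower at an unadjusted p under 0.05. The 2 higher genes were Nrp1, with 1.94 to 3.51 CPM in WT and 5.49 to 7.68 CPM in KO libraries, and Lrrc32, with 0.924 to 1.45 CPM in WT and 1.56 to 3.69 CPM in KO libraries. Gpr83 had 10.9 to 13.5 CPM in WT and 13.1 to 14.8 CPM in KO libraries. Without WT replicate 2, 3 of the 12 genes were higher and 1 lower at an unadjusted p under 0.05. Of 12 follicular helper genes 8 were tested, and at an unadjusted p under 0.05 there were 0 in either direction. Without WT replicate 2, 0 were higher and 2 lower, and the median moved from 0.13 to -0.08. Bcl6, the factor that directs follicular helper cells, had 13.0 to 14.2 CPM in WT and 14.7 to 16.4 CPM in KO libraries, Cxcr5 had 1.93 to 3.51 CPM in WT and 1.98 to 2.54 CPM in KO libraries, and Sh2d1a had 55.1 to 102 CPM in WT and 46.0 to 50.8 CPM in KO libraries.

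No gene of the cell cycle list was called. Of 18 genes tested 16 had a positive log2 fold change, against 7725 of all 14939, 0 were called and 1 was higher (5.56%) at an unadjusted p under 0.05, Birc5 at 0.305 to 0.443 CPM in WT and 0.683 to 0.829 CPM in KO libraries. Kif11 had 0.424 to 1.29 CPM in WT and 1.38 to 2.17 CPM in KO libraries, and the replication genes Mcm2 and Mcm4 had log2 fold changes of 0.39 (SE 0.213) and 0.28 (SE 0.186). Without WT replicate 2 the log2 fold changes of Kif11, Mcm2 and Mcm4 were 0.50, 0.18 and 0.11, and the median of the list moved from 0.21 to 0.18. Of 331 Zfp genes tested, many of which encode factors that bring TRIM28 and H3K9 methylation to DNA, 0 were called, 13 were higher and 10 lower at an unadjusted p under 0.05 (6.95%, against 5.78% of all genes tested). Zfp781 had 0.886 to 1.37 CPM in WT and 2.46 to 3.85 CPM in KO libraries (log2 fold change 1.42), and Zfp52 had 9.81 to 11.8 CPM in WT and 15.7 to 18.2 CPM in KO libraries (0.66). In naive cells of the HP1a line their log2 fold changes were 1.46 and 0.43. Of 83 cytosolic ribosomal protein genes tested 82 had a negative log2 fold change, against 7214 of all 14939. At an unadjusted p under 0.05, 6 were lower (7.23%, against 2.89% of all genes tested). The median of the list was -0.48 and became -0.16 without WT replicate 2, where 0 were higher and 10 lower at that threshold. The groups did not overlap, with KO lower, for 47 of the 83 genes, against 1257 of all 14939. The summed level of the list was 34733 to 61569 CPM in WT and 28314 to 33902 CPM in KO libraries, which do not overlap. The highest sum was that of WT replicate 2. Rpl13 had 1614, 3285 and 1615 CPM in WT and 1359, 1470.4 and 1176 CPM in KO libraries. Rps20 had 334 to 560.3 CPM in WT and 255 to 302 CPM in KO libraries. The 13 mitochondrially encoded genes had a median of -0.14 that became 0.08 without WT replicate 2, with 0 at an unadjusted p under 0.05 with all libraries, and WT replicate 2 was the highest library of mt-Nd1, mt-Nd2 and mt-Nd4l.

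**Figure D3:**
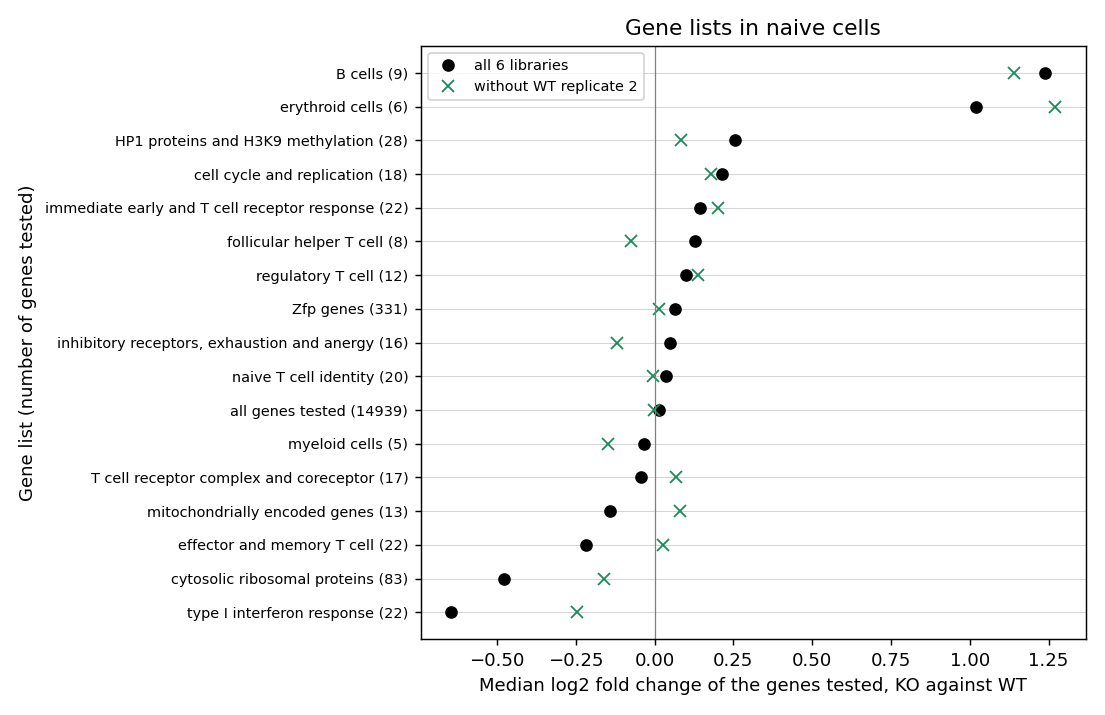
Median log2 fold change of HP1g KO against WT naive cells for each gene list with at least 5 genes tested and for all genes tested, with all 6 libraries (black points) and without WT replicate 2 (green crosses). The type I interferon list has the lowest median, -0.65 with all libraries and -0.25 without WT replicate 2, and the B cell list has the highest with all libraries, 1.24.

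Markers of other cells that the purified fraction could hold were low, and the summed levels of the B cell and erythroid lists were higher in KO libraries. The 10 B cell markers summed to 6.16 to 9.41 CPM in WT and 11.2 to 12.8 CPM in KO libraries. Of 9 tested 5 were higher (55.6%) and 0 lower at an unadjusted p under 0.05, with a median of 1.24. Of all genes tested 2.89% were higher at that threshold. Ms4a1 had 0.443 to 0.864 CPM in WT and 1.25 to 1.57 CPM in KO libraries, Cd79b had 0.659 to 0.924 CPM in WT and 1.57 to 1.78 CPM in KO libraries, and Cd79a overlapped. Bank1, a B cell scaffold protein that was chosen after its values were seen, was lower in every KO library, at 2.62 to 2.92 CPM in WT and 2.10 to 2.25 CPM in KO libraries (log2 fold change -0.34, SE 0.21). The 6 erythroid markers summed to 9.73 to 48.8 CPM in WT and 64.0 to 74.2 CPM in KO libraries, mostly from Hbb-bs, Hba-a1, Hba-a2 and Hbb-bt. At an unadjusted p under 0.05, 1 of the 6 was higher (16.7%) and 0 were lower. The globin genes were lowest in WT replicate 1, at 3.85 CPM for Hbb-bs. Both lists stayed higher without WT replicate 2, with medians of 1.14 and 1.27. Whether cells of these types have a part in the results above was not tested, and in bulk samples fewer cells of a type and less RNA per cell cannot be told apart.

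The other marker lists overlapped or touched between the groups, except the dendritic cell list. The 10 myeloid markers summed to 6.01 to 12.8 CPM in WT and 10.0 to 11.9 CPM in KO libraries, with Ltf at 0 in 4 of 6 libraries, Csf1r at 1.53 to 2.68 CPM, Itgam at 1.91 to 6.53 CPM and Lyz2 at 0.674 to 1.95 CPM over both groups. Platelet markers summed to 0.443 to 1.22 CPM in WT and 0.495 to 1.21 CPM in KO libraries. CD8 T and NK cell markers summed to 39.3 to 61.8 CPM in WT and 32.8 to 39.3 CPM in KO libraries, mostly from Cd8b1, Klrd1 and Eomes. Cd8b1 had 18.3 to 26.9 CPM and Eomes 3.14 to 6.76 CPM over both groups, while Cd8a was at most 0.401 CPM. Klrd1 had 11.5 to 30.7 CPM in WT and 9.13 to 11.7 CPM in KO libraries (log2 fold change -0.95, and -0.48 without WT replicate 2). All 4 tested members had a negative log2 fold change, with a median of -0.56, and -0.41 without WT replicate 2. At an unadjusted p under 0.05, 1 was lower (25%, against 2.89% of all genes tested) and 0 were higher. The dendritic cell list was dominated by Bst2, an interferon-induced gene at 56.1 to 135 CPM in WT and 43.4 to 54.8 CPM in KO libraries, and by Ccr9 at 5.60 to 8.92 CPM, and its more specific markers Clec9a, Xcr1, Siglech and Flt3 were at most 0.174 CPM. The γδ T and NKT cell list came from Trdc, at 10.1 to 16.9 CPM over both groups, with Zbtb16 at 0 in 4 of 6 libraries.

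The same genes were compared in the transferred cells of this line, which had been recovered from irradiated hosts without (Tconv) or with regulatory T cells (Tconv with Treg). Of 16015 genes tested in Tconv edgeR called 7 (0.0437%), with 1349 (8.42%) at an unadjusted p under 0.05, and of 17177 tested in Tconv with Treg 0 were called by edgeR, with 2028 (11.8%) at an unadjusted p under 0.05. One KO library of the latter was left out, as in the study. With DESeq2 the study did report genes that were higher in KO than in WT Tconv with Treg, including those of PD-1 and LAG-3. DESeq2 counts for the transferred cells are not given here, so that the 0 is a result of edgeR alone. Of the 10 genes with the highest log2 fold change in naive cells, 5 were above 0 in Tconv and 6 in Tconv with Treg. Of the 10 lowest, 7 were below 0 in Tconv and 5 in Tconv with Treg. The lowest edgeR adjusted p among these 20 genes was 0.178 in Tconv and 0.149 in Tconv with Treg, both for Vmn2r97.

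Some genes had the same sign in all 3 conditions. Vmn2r97 had log2 fold changes of 0.92 in naive cells, 1.33 in Tconv and 1.13 in Tconv with Treg. Marchf6 had -0.88, -0.74 and -0.69, with edgeR adjusted p-values of 0.381, 0.11 and 0.21, and no KO library reached the lowest WT library in any of the 3 conditions. Tent5a had -0.96, -1.75 and -1.53. Dapl1 had -1.46, -1.06 and -1.70, at means below 13 CPM in the transferred cells. Casp1 differed between the conditions. It was present at a mean of 151 CPM in WT and 181 CPM in KO Tconv, far above its level in naive cells, and its KO effect in naive cells was lower than that in Tconv by 1.89 (difference -1.89 in log2, edgeR adjusted p = 0.0467).

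**Figure D4:**
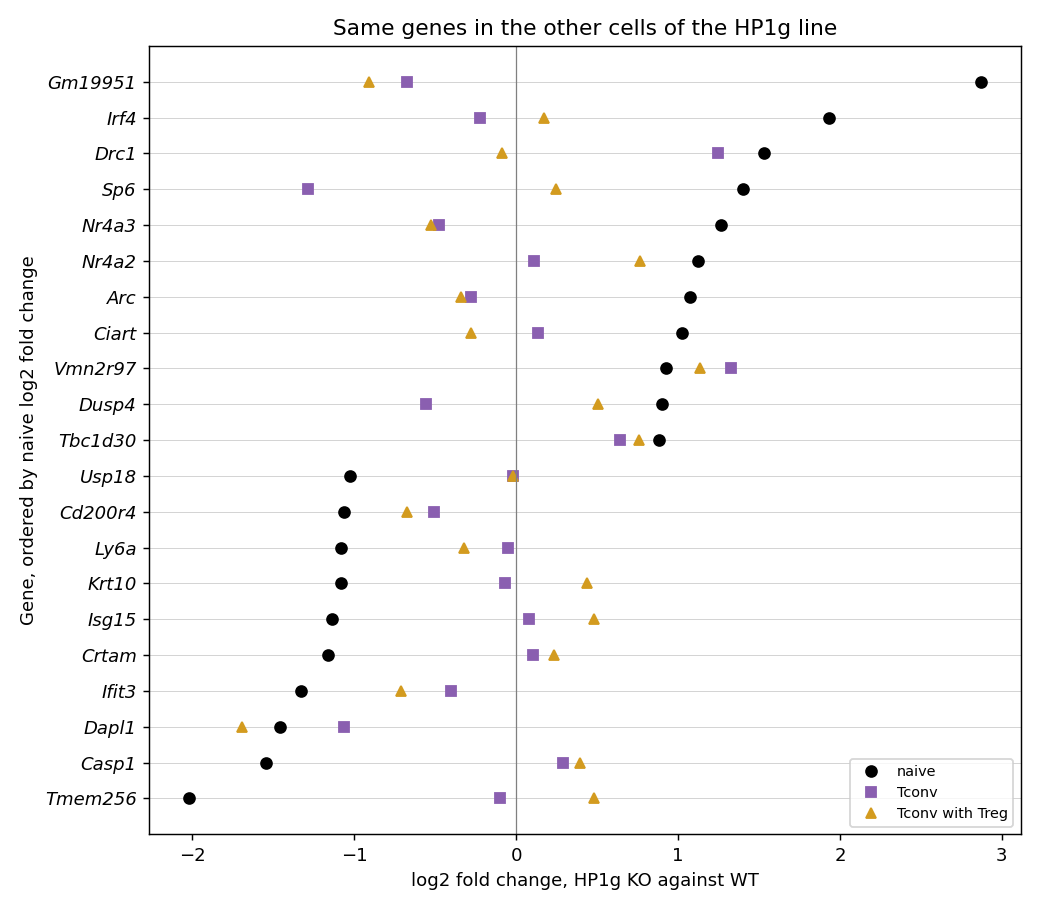
Log2 fold change of HP1g KO against WT for Gm19951 and the 10 highest and 10 lowest genes of naive cells, in naive cells (black), Tconv (purple squares) and Tconv with Treg (yellow triangles), each from its own fit. Gm19951 is at 2.87 in naive cells and at -0.67 in Tconv. The genes that keep their sign in all 3 conditions are Vmn2r97, Tbc1d30, Nr4a2, Dapl1, Ifit3, Ly6a, Cd200r4 and Usp18, the last at only -0.02 in both transferred conditions.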

How the data were processed

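RNA was amplified with a SMART-Seq kit, which does not mark strand, and sequenced as paired reads of 150 bp. The authors trimmed reads with Trim Galore 0.6.7 and Cutadapt 3.4, aligned them with STAR 2.7.10a to GRCm39 with Ensembl annotation 107 and quantified genes with Salmon 1.5.2 in nf-core/rnaseq 3.9. The deposited table holds Salmon's estimated counts for each gene and library, without scaling, and 82.9% of its values were whole. Salmon divides reads between similar genes, which makes counts of near-identical copies uncertain.

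Columns were matched to samples by name. Estimated counts were rounded, filtered with filterByExpr and tested with edgeR 4.0.16 (quasi-likelihood, robust, TMM) in R 4.3.3 on the 6 naive libraries of the HP1g line, and adjusted by Benjamini-Hochberg over all genes tested. The standard error is the log2 fold change over the root of F. Differences between KO effects were contrasts over 12 libraries. As in the study, 1 KO library of Tconv with Treg (replicate 3) was not used. The levels by group of transferred and HP1a cells were scaled over 23 libraries. Alternatives were DESeq2 1.42.0, limma 3.58.1 (voom with quality weights), other scaling and filters, other sets of libraries, a replicate block and each library left out. Scripts were tested on simulated data.

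Named genes were the HP1 genes, called genes, the 10 highest and 10 lowest by log2 fold change among genes of at least 5 CPM on average with an unadjusted p under 0.05 and no overlap (no predicted genes, RIKEN clones, numbered pseudogenes or receptor segments), up to 3 members per list and up to 6 calls each of DESeq2 and of the fit without WT replicate 2. Other listed genes given with values, among them Pdcd1, Tox, Ccr7, Lef1, Cd3e and Foxp3, were named outside these rules. Members and lists were chosen with earlier results of these data known. Positions are from the GENCODE annotation of GRCm39. Values of some listed genes are not reported here.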

Additional observations from a re-analysis of the deposited data

Results flagged for a closer look

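The KO effects of the HP1g line differed between naive cells and Tconv for 4 of 17024 genes tested (0.0235%), by edgeR's test of the difference itself. Gm19951 differed by 3.48 (log2, naive minus Tconv, edgeR adjusted p = 0.024), since it was higher in naive KO cells and not in Tconv. Casp1 differed by -1.89 (edgeR adjusted p = 0.0467). Gm50287, a long noncoding RNA, differed by -2.71 and Myo5b, a myosin of membrane traffic, by -6.16, both with an edgeR adjusted p of 0.024. Neither of these 2 moved in naive cells. Gm50287 had means of 2.17 CPM in WT and 2.31 CPM in KO naive cells, against 0.569 CPM in WT and 3.83 CPM in KO Tconv. Myo5b had means of 0.343 and 0.307 CPM in WT and KO naive cells, against 0.0144 and 1.04 CPM in WT and KO Tconv.

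The KO effects in naive cells of the HP1g and HP1a lines differed for 1 of 16090 genes tested (0.00622%). Gm19951 differed by 3.37 (log2, HP1g line minus HP1a line, edgeR adjusted p = 0.0123). No explanation of these differences was tested.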

How the results depend on the processing

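The count of calls rested on the settings. For KO against WT in naive cells it was 1 with all libraries and 38 with DESeq2, 37 with limma voom and quality weights, 24 with no filter on low counts, 9 with all 12 naive libraries in 1 fit, 3 with the 17 libraries of the HP1g line in 1 fit, and 0 with RLE size factors, with genes averaging 1 CPM or more and under the replicate block. It ranged from 0 to 21 when each library was left out, with 21 without WT replicate 2 and 0 without any other. The difference between naive cells and Tconv gave 4 calls, against 103 with DESeq2, 284 with limma voom, 32 with no filter, 2 when genes averaged 1 CPM or more and 1 under the replicate block, and 0 to 12 with each library left out. The difference between the lines gave 1 call, against 15 with DESeq2, 19 with limma voom, 8 with no filter and 0 with the block, and 0 to 3 with each library left out. The cause of these shifts was not tested.

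The deviations of equally numbered KO and WT libraries from their group means correlated at -0.0798, 0.23 and 0.257, and not every library correlated best with its own number. The means rest on 3 libraries each, and WT replicate 2 stood apart from its group. These values therefore cannot decide whether the replicate numbers pair the libraries. With the replicate block the Cbx3 log2 fold change was -0.901. Cbx3 stayed below 0 in every alternative, from -1.10 to -0.65 with each library left out.

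With limma voom the sign turned for Cbx1 (0.054), Itgam (-0.053), Lyz2 (-0.086), mt-Nd2 (0.037) and mt-Nd1 (0.061), and with the replicate block for Eomes (0.017). With each library left out Cbx1 ranged from -0.42 to 0.032, Lyz2 from -0.15 to 0.49, mt-Nd2 from -0.48 to 0.023, mt-Nd1 from -0.46 to 0.060 and Eomes from -0.34 to 0.14. The design has 3 libraries a group, and 1 library set the spread of the WT group. Genes with under 1 CPM rest on few counts.

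Of the list medians, leaving out WT replicate 2 moved that of the interferon list from -0.65 to -0.25 and turned the sign of those of the effector and memory, inhibitory, follicular helper, mitochondrial, T cell receptor complex, naive identity and platelet lists. Gm19951 was not called with RLE size factors, with genes averaging 1 CPM or more, under the replicate block or without any library other than WT replicate 2.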
